A study of Mus musculus with 24 samples.

Results

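Oxidative phosphorylation is carried out by 4 electron transport complexes and the ATP synthase of the inner mitochondrial membrane, and the genes for their subunits are described here in the mouse visual cortex after light, psilocybin or both. The members were chosen by symbol. They were the protein-coding genes of the count table beginning Nduf (the assembly factors Ndufaf excepted), Uqcr, Atp5, Cox4 to Cox8 or Sdha to Sdhd, together with the mitochondrially encoded mt-Nd, mt-Co, mt-Cyt and mt-Atp genes. Of 55414 genes in the table, 121 matched these symbols, 18 of them were not protein-coding, and 103 were kept, 90 encoded in the nucleus and 13 in the mitochondrial genome. Members had to reach 30 counts in at least 1 mouse to be tested, and 92 did so, 84 of the nuclear and 8 of the mitochondrially encoded genes, among 14464 genes tested in all.

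The 24 mice were C57BL/6J males, aged 8 weeks by one statement of the methods and 8 to 10 weeks by another, and littermates were assigned to the groups at random. All were housed on a reversed light cycle, and the experiment was run in their dark phase. Each mouse received an intraperitoneal injection of saline vehicle (PBS) or of psilocybin, a serotonergic psychedelic, at 5 mg/kg, and then spent 2.5 hours in light or in the dark before the visual cortex was taken and its polyA RNA sequenced. The 4 groups of 6 mice are called dark, light, psilocybin-dark and psilocybin-light, with 1 library per mouse.

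In oxidative phosphorylation, complex I takes electrons from NADH and complex II takes them from succinate. Both pass them through ubiquinone to complex III, cytochrome c and complex IV, which reduces oxygen, and complexes I, III and IV pump protons that the ATP synthase, complex V, uses to make ATP. Neurons rely heavily on this pathway, since restoring ion gradients after synaptic activity consumes much of their ATP. Most subunits are encoded in the nucleus and imported, whereas a few membrane subunits of complexes I, III, IV and V are transcribed from mitochondrial DNA. Complex II has no mitochondrially encoded subunit.

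The group of a mouse depends on the source used. The sample labels and the headings of the study's supplementary count table named the same drug for each of the 24 mice but opposite light exposures. The headings were followed here. Under the labels, every difference between psilocybin-light and psilocybin-dark mice, and between light and dark mice, keeps its size and changes its sign. The libraries held 13552516 to 17906994 counts, with a median of 16235866.

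The dark mice stood apart from the others in markers of brain region, so these values belong beside each comparison with that group. Summed normalized counts of visual and upper-layer cortex markers were 1384 to 3952 in the dark mice and 5123 to 9195 in the other 18. Hippocampal markers summed to 2636 to 7069 in the dark mice and 977 to 1707 in the others, and markers of hypothalamus and amygdala to 1699 to 12229 against 1287 to 2621. None of these markers was at 0 throughout a group, except for 1 of the 6 of hypothalamus and amygdala in psilocybin-light mice. Cerebellar markers were high in 4 mice, at 29747 in dark mouse 1, 62498 in dark mouse 6, 28753 in psilocybin-dark mouse 12 and 17910 in light mouse 18, and were 439 to 1963 in the other 20 mice. Markers of glutamatergic neurons were present in every mouse, at 38194 to 108910 in the dark group and 81441 to 132340 elsewhere. In bulk tissue, fewer cells of a type and less RNA per cell cannot be told apart.

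Not all of the 13 mitochondrially encoded genes could be measured. The genes mt-Co2 and mt-Co3, subunits of complex IV, mt-Atp6 and mt-Atp8, subunits of the ATP synthase, and mt-Nd4l, a subunit of complex I, had 1, 1, 2, 0 and 0 counts in all 24 mice together. Their sequence is repeated in the nucleus. In GRCm39 the stretch from 6394 to 11042 of the mitochondrial chromosome is carried on the minus strand of chromosome 1 from 24650616 to 24655265, in 3 identical blocks of 3067, 367 and 1215 bases. For each of these 5 genes, 100% of 75-base windows occurred at that second place. The first 75 bases of mt-Co2, chrM:7013-7087 and chr1:24654572-24654646, are shown because no base of them differs between the 2 places:

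mt-Co2: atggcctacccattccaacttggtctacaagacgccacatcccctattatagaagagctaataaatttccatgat

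The 7 pseudogene rows annotated in the chromosome 1 copy were as empty, with totals of 0 to 30 counts. Of the genes that were tested, mt-Nd3, a subunit of complex I, had 98.9% of its windows repeated and 436 counts in all, whereas mt-Nd4 (61.5% repeated) and mt-Co1 (39.8%) kept 860454 and 3364607 counts and mt-Nd1, mt-Cytb and mt-Nd6 had no repeated window. How reads that map to several places were treated is not given in the sources used here, and its part in these counts was not tested. Nuclear members with many repeated windows were Atp5mc2 (88.0%) and Atp5mc1 (76.4%), which encode identical mature c-ring subunits of the ATP synthase, then Cox7c (70.0%), Ndufs5 (69.0%), Atp5mg (61.8%), Uqcrb (40.9%) and Ndufb4 (39.7%), and their values are uncertain to that extent. The strand setting of the counting was not found either, so reads of the 2 strands cannot be told apart. This touches mt-Nd5 and mt-Nd6, which lie on opposite strands and overlap from 13552 to 13565. It touches mt-Nd6 beyond the overlap as well. Among the mitochondrially encoded members mt-Nd6 alone lies on the minus strand, and any plus-strand RNA across it could be counted as mt-Nd6. What part of its 363168 counts this makes up was not tested.

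The nuclear members have promoters of their own, and 4 stretches are shown, those of the named nuclear genes that were called in the most comparisons, with ties broken by the smaller p (Ndufa2, which comes before Ndufa12 in that order, is not shown), each 150 bases ending at the transcription start (RefSeq, GRCm38.p6). Capitals mark the core of the NRF1 motif (GCATGCGC, the site of nuclear respiratory factor 1, a regulator of respiratory chain genes) and the GC box (GGGCGG) on either strand. The first is Uqcr10 on chr11:4704345-4704494, minus strand, the second Cox8a on chr19:7217617-7217766, minus strand, the third Sdhb on chr4:140961121-140961270, plus strand, and the last Ndufa12 on chr10:94198885-94199034, plus strand:

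Uqcr10: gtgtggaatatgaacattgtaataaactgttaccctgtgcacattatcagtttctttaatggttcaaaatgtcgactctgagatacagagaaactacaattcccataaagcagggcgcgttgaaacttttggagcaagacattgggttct
Cox8a: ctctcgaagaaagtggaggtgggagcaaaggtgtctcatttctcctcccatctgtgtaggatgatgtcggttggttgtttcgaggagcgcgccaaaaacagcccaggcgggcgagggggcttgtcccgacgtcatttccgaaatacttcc
Sdhb: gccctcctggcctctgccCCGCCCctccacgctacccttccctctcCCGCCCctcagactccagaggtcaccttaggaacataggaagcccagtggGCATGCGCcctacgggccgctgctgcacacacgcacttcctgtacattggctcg
Ndufa12: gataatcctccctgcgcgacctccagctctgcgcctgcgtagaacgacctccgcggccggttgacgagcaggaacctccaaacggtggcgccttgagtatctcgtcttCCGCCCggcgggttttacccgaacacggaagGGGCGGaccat

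The Sdhb stretch held 1 NRF1 core and 2 GC boxes, that of Ndufa12 held 2 GC boxes, and those of Uqcr10 and Cox8a held neither. A window of 300 bases, 250 before and 50 after the start, was found for 67 of the 84 nuclear members tested and for 11016 genes tested. The NRF1 core was in 10 of the 67 windows (14.9%) and in 5.15% of all windows, and the YY1 motif AAGATGGC in 9 (13.4%) and 4.41%. The ETS motif CCGGAAG was in 15 member windows (22.4%) and 16.7% of all, and the cyclic AMP response element TGACGTCA in 4 (5.97%) and 3.18%. The GC box was in 27 member windows (40.3%) and 64.0% of all. Both strands were searched, and no motif contains another. A match is a description of letters and not evidence of binding.

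The levels of the members differed widely. Per kilobase of the canonical transcript, mean normalized counts over the 24 mice were highest for the mitochondrially encoded mt-Co1, the catalytic subunit of complex IV, at 90625, for mt-Cytb, the cytochrome b of complex III, at 79503, and for mt-Nd1, a core membrane subunit of complex I, at 78417. The 5 mitochondrially encoded genes that could not be measured have no place in this order. The value of mt-Co1 divides by its full length, although 39.8% of its windows are repeated. The highest nuclear levels per kilobase were 9903 for Atp5f1b, the catalytic beta subunit of the ATP synthase, 8512 for Cox8a and 8430 for Cox4i1. Within complex II the levels per kilobase were 2352 for Sdha, the flavoprotein, 892 for Sdhd and 380 for Sdhc, the membrane anchors, and 421 for Sdhb, the iron-sulfur subunit. These levels divide by canonical transcripts of 3073, 1258, 3209 and 4030 bases, which may not be the forms expressed in this tissue. Their order is uncertain to that extent. Before division the means were 7228, 1122, 1218 and 1697 in the same order of genes. The lowest members tested were Ndufa4l2 at 25.4, Cox4i2 at 26.1 and Cox7a1 at 31.6 per kilobase. A normalized count is a count scaled by the trimmed mean of M values (TMM) to the mean library size of the series, and group values below are normalized counts without division by length.

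Psilocybin-light and psilocybin-dark mice received the same drug and differed in light, and more members were called here than in any other of the 7 comparisons. Of the 84 nuclear members tested, 36 were higher in psilocybin-light mice and 0 were lower at an adjusted p under 0.05 (edgeR quasi-likelihood test). Of the 8 mitochondrially encoded members, 7 were higher and 0 lower. By unadjusted p under 0.05, 59 nuclear and 7 mitochondrially encoded members were higher and none was lower, and DESeq2 called 45 and 7 higher and none lower. Among all genes tested, edgeR called 2.60% higher and 3.78% lower at the adjusted threshold, which is no background for the counts by unadjusted p or DESeq2. The median change was 0.16 on the log2 scale over the nuclear members (11.4% higher), 0.45 over the mitochondrially encoded (36.3% higher) and -0.01 over all genes tested. The estimate was positive for 82 of the 84 nuclear members, the exceptions being Sdha and Cox6b2. In 27 members, 24 of them nuclear, every psilocybin-light mouse was above every psilocybin-dark mouse, which held in this direction for 2.61% of all genes tested.

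Calls came from every complex. In complex I, 3 of the 7 nuclear core subunits were higher, namely Ndufs3, Ndufs7 and Ndufs8, of which Ndufs7 and Ndufs8 carry iron-sulfur clusters, with changes of 0.19 to 0.23. Of the 30 accessory subunits of complex I, which surround the core without catalysing electron transfer, 15 were higher. In complex II only Sdhb of the 4 subunits was called. In complex III 3 of 8 were higher (Uqcr10, Uqcrq and Uqcrc1), in complex IV 9 of 12, and in the ATP synthase 5 of 18, which were Atp5me, Atp5mf and Atp5mk of the membrane part, the gamma subunit Atp5f1c of the rotating stalk, and Atp5if1, the inhibitor of the enzyme's ATP hydrolysis. The median changes were 0.14 for complex I core, 0.17 for complex I accessory, 0.07 for complex II, 0.18 for complexes III and IV and 0.15 for complex V.

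**Figure D1:**
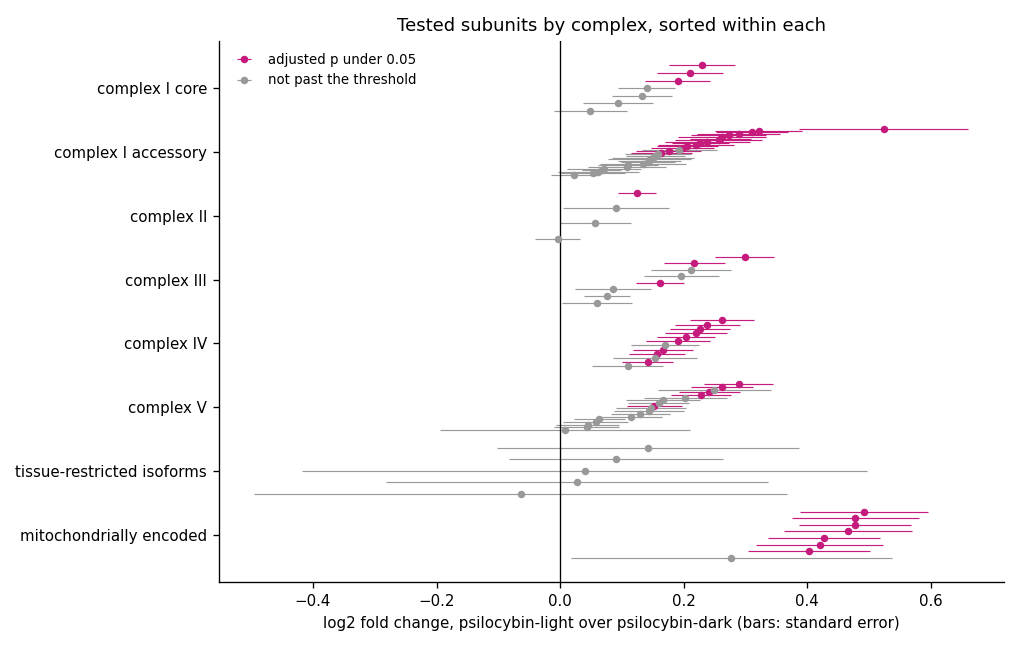
Log2 fold change of psilocybin-light over psilocybin-dark mice (horizontal axis) for each of the 92 members tested, grouped by complex (vertical axis) and sorted within it. Points are edgeR estimates, bars are standard errors, and magenta points passed an adjusted p of 0.05. All but 2 points lie to the right of 0, and the mitochondrially encoded members lie furthest right as a group, with a median of 0.45.

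The smallest p belonged to Uqcr10, a small subunit of complex III (GRCm39 chr11:4651968-4654653, minus strand). Its normalized counts in psilocybin-dark mice were 863 at the lowest, 934 at the median and 1041 at the highest. In psilocybin-light mice they were 1065, 1167 and 1222. The 2 groups did not overlap, although the highest psilocybin-dark mouse came close to the lowest psilocybin-light mouse. The change was 0.30 on the log2 scale (SE 0.05, adjusted p = 0.00112, edgeR). Dark mice lay at 941 to 1057 and light mice at 1063 to 1193, so all 12 mice exposed to light were above all 12 kept in the dark for this gene.

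Ndufa2 and Ndufa12 are accessory subunits of complex I. Ndufa2 ran from 515 to 634 in psilocybin-dark mice with a median of 554, and from 615 to 739 with a median of 720 in psilocybin-light mice. One psilocybin-light mouse fell inside the psilocybin-dark range. The difference was 0.31 (SE 0.06, adjusted p = 0.00233, edgeR). Ndufa12 had a lowest, median and highest value of 715, 794 and 870 in psilocybin-dark mice and of 932, 942 and 994 in psilocybin-light mice. There was no overlap for Ndufa12, and the difference was 0.26 (SE 0.05, adjusted p = 0.00282, edgeR). Dark mice, at 877 to 998, covered the psilocybin-light range.

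Other called nuclear members, named after their values were seen, had similar sizes of change. For Atp5me, subunit e of the ATP synthase, the 6 psilocybin-light mice were at 887 to 934 and the 6 psilocybin-dark mice at 679 to 800. For Cox7a2, a subunit of complex IV, the groups were at 1456 to 1738 and 1261 to 1492 and overlapped. The largest estimate was that of Ndufb4 at 0.52, but this gene had only 59.1 to 95.7 counts in psilocybin-dark mice and 87.0 to 125 in psilocybin-light mice. The 41 other called members apart from Ndufb4 and Sdhb had changes between 0.14 and 0.49.

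Mitochondrially encoded genes showed the larger changes in this comparison. For mt-Nd1 (GRCm39 chrM:2751-3707, plus strand), psilocybin-dark mice ran from 59815 to 68972 with a median of 62798. Psilocybin-light mice ran from 72051 to 103100 with a median of 87677, so the groups did not overlap. The change was 0.48 (SE 0.09, adjusted p = 0.00267, edgeR). For mt-Co1 the lowest, median and highest values were 111540, 116410 and 129960 in psilocybin-dark mice and 130440, 168760 and 199800 in psilocybin-light mice, again with no overlap. Its change was 0.49 (SE 0.10, adjusted p = 0.00574, edgeR). mt-Nd2, another core membrane subunit of complex I, was the last without overlap, at 40454 to 47149 against 48260 to 67904.

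The other mitochondrially encoded members overlapped between the groups. mt-Cytb changed by 0.48 (adjusted p = 0.00652, edgeR), mt-Nd4 by 0.47 (0.00851), mt-Nd6 by 0.42 (0.0147) and mt-Nd5 by 0.40 (0.0153), the last 3 of them subunits of complex I. The limit on strand given above applies to mt-Nd6. mt-Nd3, at 7.67 to 25.7 counts in psilocybin-light mice and 9.63 to 20.2 in psilocybin-dark mice, had an estimate of 0.28 with an adjusted p of 0.617. The ribosomal RNAs of the mitochondrion, which are no members, were measured in the same libraries, and mt-Rnr1 changed by 0.42 (adjusted p = 0.0188, edgeR) while mt-Rnr2 had an estimate of 0.28 (adjusted p = 0.105).

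As a share of all counts, the 13 mitochondrially encoded members together took 2.85% ± 0.28 (SD, n = 6) in dark mice, 2.92% ± 0.49 in light mice, 2.44% ± 0.14 in psilocybin-dark mice and 3.37% ± 0.43 in psilocybin-light mice. The psilocybin-dark mice spanned 2.29% to 2.69% and the psilocybin-light mice 2.72% to 3.92%. Dark and light mice overlapped with both. The 90 nuclear members took 0.98% ± 0.08, 0.98% ± 0.05, 0.92% ± 0.05 and 1.00% ± 0.02 in the same order. These shares are given as a description and were not tested.

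The make-up of the mitochondrially encoded set was more even than its total. Of the sum over the 7 genes with a highest count over 1000, mt-Co1 made up 28.4% to 29.7% in dark mice. It made up 29.8% to 31.5% across the other 18 mice, with no overlap. mt-Nd5 made up 12.9% to 13.6% in dark mice and 11.7% to 12.6% in light mice. Psilocybin-dark mice, at 12.2% to 13.7%, and psilocybin-light mice, at 11.9% to 12.9%, lay across both.

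**Figure D2:**
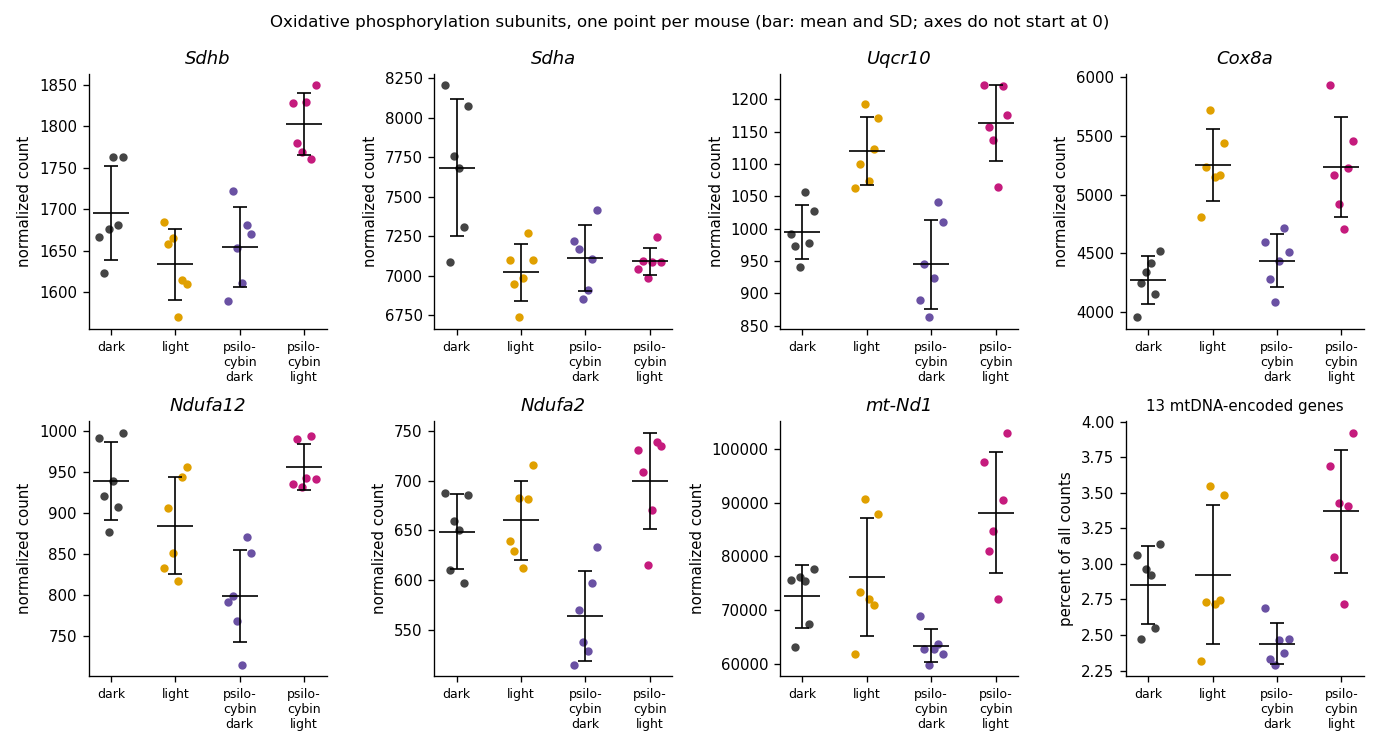
Normalized counts (vertical axes) of 7 subunits, and the share of all counts taken by the 13 mitochondrially encoded genes, in each of the 24 mice by group (horizontal axes). Of these 13 genes, 7 hold nearly all of the share. Each point is a mouse, and bars are the mean and SD. Sdhb is higher in all 6 psilocybin-light mice than in any light or psilocybin-dark mouse, Uqcr10 and Cox8a are high in both light-exposed groups, and Ndufa12, Ndufa2 and mt-Nd1 are lowest in psilocybin-dark mice.

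Transcript length moved with this comparison. The nuclear members tested are short, with a median canonical transcript of 1002 bases against 3492 for all genes tested. Genes of up to 1000 bases had a median change of 0.14 (721 genes), those of 1000 to 2000 bases 0.09 (2289), those of 2000 to 4000 bases 0.02 (5459) and longer ones -0.08 (5958). The nuclear members had medians of 0.20 (42 members), 0.15 (22), 0.11 (15) and 0.12 (5) in the same classes, above the median of all genes in each. The canonical transcript may not be the form expressed in visual cortex, for example in Sdhb (4030 bases). Which form was expressed was not tested, so members may stand in too long a class. The same limit applies to the removal of length trends. With trends over length and GC content removed within each library, 9 nuclear members and 6 mitochondrially encoded members were called, in place of 36 and 7, and the medians were 0.07 and 0.42. Uqcr10 then had a change of 0.12 (adjusted p = 0.239, edgeR).

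**Figure D3:**
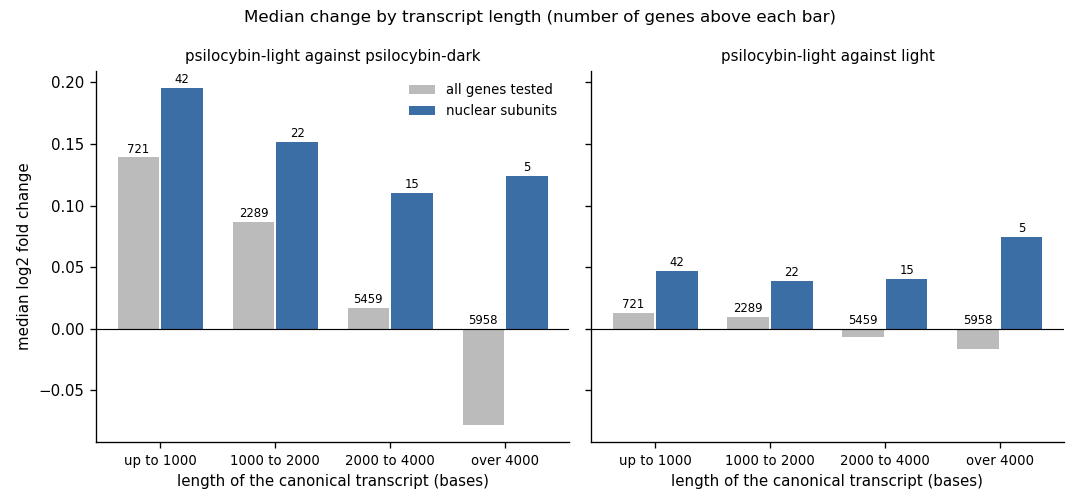
Median log2 fold change (vertical axis) by length of the canonical transcript in bases (horizontal axis), for all genes tested (grey) and nuclear subunits (blue), in psilocybin-light against psilocybin-dark mice (left) and psilocybin-light against light mice (right). Numbers above the bars count genes. On the left the grey bars fall from 0.14 to -0.08 with length, and the blue bars stay between 0.11 and 0.20.

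Some markers of other cells and regions also differed here, where 3.78% of all genes tested were called lower. Astrocyte markers summed to 58490 to 66359 in psilocybin-light mice and 74830 to 87216 in psilocybin-dark mice, and 2 of the 7 were called lower. Hippocampal markers summed to 977 to 1262 and 1312 to 1707, and 1 of 8 tested was called lower. The sums of both lists did not overlap between the groups. Cerebellar markers had a median estimate of -2.95 with 0 of 8 called by edgeR, 4 lower by unadjusted p under 0.05 and 1 by DESeq2. No marker of these lists was at 0 throughout either group, and their part in the subunit changes was not tested. Without the 4 mice high in cerebellar markers, a choice made after seeing the data, 60 nuclear and 7 mitochondrially encoded members were called higher, beside 8.19% of all genes tested in that fit.

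Sdhb was the only member that separated psilocybin-light mice from all 3 other groups. It lies on chr4:140688502-140709380, plus strand, in GRCm39. Normalized counts were 1761, 1804 and 1850 (lowest, median and highest) in psilocybin-light mice and 1569, 1636 and 1685 in light mice. Psilocybin-dark mice had 1589, 1662 and 1722, and dark mice 1623, 1678 and 1764. All 6 psilocybin-light mice were above all light and all psilocybin-dark mice, and the highest dark mice reached just into their range. The sample labels call these 6 mice psilocybin-dark, so a rise of Sdhb in psilocybin-light mice rests on following the headings.

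The change of Sdhb was 0.14 against light mice (SE 0.03, adjusted p = 0.0328), 0.12 against psilocybin-dark mice (SE 0.03, adjusted p = 0.0157) and 0.09 against dark mice (SE 0.03, adjusted p = 0.0247), all from edgeR. These 3 comparisons share the psilocybin-light mice. Taken alone, the first and the second each had an exact permutation p of 0.00216, two-sided over 924 splits and the smallest that 6 mice against 6 allow. Being higher against all 3 groups held for 1 of the 92 members and 3 of the 14464 genes tested, and being lower against all 3 for 0 members and 53 genes. The call against light mice was lost when any 1 of light mice 14, 15 and 16 or psilocybin-light mice 19, 20, 21, 22 and 24 was left out, with changes of 0.13 to 0.16 and adjusted p of 0.055 to 0.101. It was also lost with length and GC trends removed (0.17, adjusted p = 0.0592), without a filter on low counts (0.15, adjusted p = 0.253) and with only the groups compared in the fit (0.15, adjusted p = 0.0578). The call against psilocybin-dark mice was lost without a filter (adjusted p = 0.154). That against dark mice was lost without dark mouse 2 (0.08, adjusted p = 0.0598), without dark mice 2 to 5, without a filter, with only the groups compared and with the hippocampal covariate (adjusted p of 0.0866 to 0.526 in these 4).

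The other subunits of complex II did not follow Sdhb. Sdha, on chr13:74469359-74498436, minus strand, was at 7086 to 8207 in dark mice with a median of 7718, and at medians of 7041, 7137 and 7089 in light, psilocybin-dark and psilocybin-light mice. Dark mice were the highest group, with overlap. Sdhc ran from 1171 to 1320 and Sdhd from 1059 to 1145 in psilocybin-light mice. Both lay within the ranges of the dark mice, 1072 to 1587 and 1012 to 1287, and neither was called in any of the 7 comparisons.

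Psilocybin-light and light mice differed in the drug alone, and Sdhb was the single member called. Among all genes tested 0.0553% were called higher and 0.553% lower. By unadjusted p under 0.05, 8 nuclear and 4 mitochondrially encoded members were higher and none was lower. DESeq2 called 1 nuclear and 0 mitochondrially encoded members. The edgeR shares of all genes are no background for these counts by unadjusted p and DESeq2. The median changes were 0.05 for the nuclear and 0.20 for the mitochondrially encoded members, 8 of 8 of the latter being positive. The number of calls fell to 0 without any 1 of the 8 mice named above for Sdhb. The lists of markers tested gave 1 call for astrocytes, lower, and none for hippocampus or cerebellum, where 1 and 2 markers were lower by unadjusted p and DESeq2 called none.

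Light against dark mice asks what light did without the drug, and complex IV accounted for most of the calls. Of the nuclear members 10 were higher and 1 lower, where 15.4% and 16.5% of all genes were called in these directions. The share of members called, 10 of 84 and 1 of 84, was thus below that background in both directions. Complex IV gave 6 of the 10, from 12 subunits tested with a median change of 0.12, and complex I accessory subunits gave 2, complex III 1 and the ATP synthase 1. None of the 8 mitochondrially encoded members was called by edgeR or DESeq2, and none had an unadjusted p under 0.05.

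Cox8a, the subunit VIII of complex IV found in most tissues (GRCm39 chr19:7192515-7194997, minus strand), ran from 3957 to 4523 in dark mice with a median of 4297. In light mice it ran from 4807 to 5722 with a median of 5200. The groups did not overlap, and the change was 0.30 (SE 0.05, adjusted p = 0.00019, edgeR). Psilocybin-light mice were at 4711 to 5931, and psilocybin-dark mice, at 4086 to 4717, reached just above their lowest value.

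Cox6a1 and Cox6c, also structural subunits of complex IV, separated light from dark mice in the same way. Cox6a1 was at 3704 to 4353 in dark mice and 4501 to 5022 in light mice (change 0.20, adjusted p = 0.00281, edgeR). Cox6c was at 1792 to 2066 and 2103 to 2384 (change 0.19, adjusted p = 0.00657). Ndufs6, a zinc-binding accessory subunit of complex I, was at 586 to 682 and 651 to 758 with overlap, and changed by 0.18 (adjusted p = 0.00744). Sdha fell by 0.13 (SE 0.04, adjusted p = 0.0076, edgeR) from a mean of 7685 to one of 7024, with light mice at 6737 to 7273.

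These values stood beside the marker differences described above, with 5 of 8 hippocampal markers lower, 6 of 6 markers of hypothalamus and amygdala lower and 6 of 6 of visual and upper-layer cortex higher in light mice. Of the cell type markers, 3 of 7 of glutamatergic neurons and 3 of 6 of microglia were higher, and 2 of 7 of astrocytes were lower and 1 higher. With the hippocampal marker level as a covariate no member was called by edgeR, and the changes of Cox8a, Cox6a1 and Cox6c were 0.20, 0.15 and 0.21. Summed hippocampal markers set all dark mice apart from all other mice, so calls lost with this covariate cannot tell region from group. With length and GC trends removed the split of calls was 4 higher and 9 lower, and Cox8a, Cox6a1 and Cox6c were not called (adjusted p of 0.0711 to 0.643). Without light mouse 15 there were 7 calls and without dark mouse 6 there were 19.

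Psilocybin-dark against dark mice asks what the drug did in the dark, and here the called members were lower. None of the 84 nuclear members was higher and 11 were lower, where 11.9% of all genes were called higher and 12.8% lower. The share of members called lower, 11 of 84, was thus close to that background, and only the 0 of 84 called higher departed from it. No nuclear member was higher by unadjusted p under 0.05 or by DESeq2. The calls were 7 complex I accessory subunits, 3 subunits of the ATP synthase and Sdha. No mitochondrially encoded member was called by edgeR or DESeq2, and the median of the 8 was -0.21. By unadjusted p under 0.05, 6 of 8 were lower, and no share of all genes is given beside this count.

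Ndufa12 changed by -0.23 on the log2 scale (SE 0.05, adjusted p = 0.00153, edgeR), and its 715 to 870 counts did not overlap with the 877 to 998 of dark mice. Ndufv3, an accessory subunit of complex I, was at 617 to 824 against 737 to 931 and changed by -0.23 (adjusted p = 0.0119). Atp5mf, subunit f of the ATP synthase, was at 1211 to 1407 against 1401 to 1602 and changed by -0.17 (adjusted p = 0.0122). Ndufa2, at 515 to 634 against 598 to 688, changed by -0.20 (adjusted p = 0.0132). The last 3 overlapped between the groups. Sdha changed by -0.11 (adjusted p = 0.0246, edgeR), a call lost without any 1 of dark mice 1 and 6 and psilocybin-dark mice 9 and 10.

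Of the region markers, 4 of 8 hippocampal ones and 6 of 6 of hypothalamus and amygdala were lower and 6 of 6 of visual and upper-layer cortex were higher in psilocybin-dark mice. Of the cell type markers, 3 of 7 of glutamatergic neurons were higher, 2 of 7 of GABAergic neurons were higher and 1 lower, 1 of 7 of astrocytes was higher and 2 lower, and 1 of 4 of oligodendrocyte precursors was lower. The part of these markers was not tested. No member was called by edgeR with the hippocampal marker level as a covariate. That level sets the dark mice apart, so the loss of calls cannot tell region from group. The number of calls was 7 without dark mouse 1, dark mouse 4 or psilocybin-dark mouse 10, and 17 without dark mouse 5.

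Psilocybin-light against dark mice gave 21 nuclear members higher and 2 lower, and 3 mitochondrially encoded members higher and 0 lower. Among all genes tested 17.4% were higher and 21.0% lower. None of the mitochondrially encoded members was lower by unadjusted p under 0.05 or by DESeq2. Complex IV gave 6 of the calls from 12 subunits and complex I accessory subunits gave 7 higher and 1 lower. All 3 complex I core subunits called here, Ndufs3 among them, were higher.

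The change of Cox8a was 0.29 (SE 0.05, adjusted p = 0.000155), that of Cox6c 0.26 (adjusted p = 0.000413), that of Uqcr10 0.23 (adjusted p = 0.000699) and that of Ndufs3 0.25 (adjusted p = 0.000717), all by edgeR. Psilocybin-light mice did not overlap with dark mice in Cox8a, Cox6c (2086 to 2460) and Uqcr10. In Ndufs3, a subunit of the complex I core, they were at 1065 to 1203 and dark mice at 892 to 1076, with overlap. The 2 members that were lower were Sdha at -0.12 (adjusted p = 0.0129) and Ndufv3 at -0.17 (adjusted p = 0.0418). The call of Sdha was lost without dark mouse 1 (-0.09, adjusted p = 0.0504), and that of Ndufv3 without any 1 of 11 mice. The mitochondrially encoded members called were mt-Co1 at 0.36, mt-Nd1 at 0.28 and mt-Cytb at 0.26.

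In this comparison 7 of 8 hippocampal, 7 of 8 cerebellar and 6 of 6 hypothalamus and amygdala markers were lower and 6 of 6 visual and upper-layer cortex markers were higher. Of the cell type markers, 3 of 7 of glutamatergic neurons and 2 of 6 of microglia were higher, 2 of 7 of GABAergic neurons were higher and 1 lower, 1 of 7 of astrocytes was higher and 3 lower, and 2 of 4 of oligodendrocyte precursors were lower. Astrocyte markers summed to 58490 to 66359 in psilocybin-light mice and 72449 to 81739 in dark mice. With length and GC trends removed Cox8a (0.13) and Uqcr10 (0.064) were no longer called. With the hippocampal marker level as a covariate 1 member was called. That level sets the dark mice apart, so the loss of calls cannot tell region from group. Without the 4 mice high in cerebellar markers 46 members were called, and no share of all genes is given beside this count. The part of the region and cell type markers in these changes was not tested.

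Psilocybin-dark and light mice differed in both factors. None of the members was higher and 3 nuclear members were lower in psilocybin-dark mice, where 0.194% of all genes were higher and 0.263% lower. No member was higher by unadjusted p under 0.05 or by DESeq2. By unadjusted p 43 nuclear and 6 mitochondrially encoded members were lower, and DESeq2 called 20 nuclear and 0 mitochondrially encoded members lower. The shares of all genes above are edgeR calls at the adjusted threshold and are no background for these counts. In 11 nuclear members every psilocybin-dark mouse was below every light mouse, which held for 1.36% of all genes tested.

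The called members were Uqcr10 at -0.25 (SE 0.05, adjusted p = 0.026), Atp5me at -0.25 (adjusted p = 0.0323) and Cox8a at -0.24 (adjusted p = 0.0369), all by edgeR. None overlapped between the groups. Light mice had 817 to 982 counts of Atp5me and psilocybin-dark mice 679 to 800. None of the 3 was called with length and GC trends removed, where the estimates were -0.073, -0.083 and -0.062, or without a filter on low counts (adjusted p of 0.0965, 0.11 and 0.164). No call remained when any 1 of psilocybin-dark mice 7 to 10 or light mice 14, 15, 17 and 18 was left out. The number rose to 9 without dark mouse 1, 15 without dark mouse 6, 14 without psilocybin-dark mouse 12, 10 without light mouse 13 and 6 without light mouse 16.

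**Figure D4:**
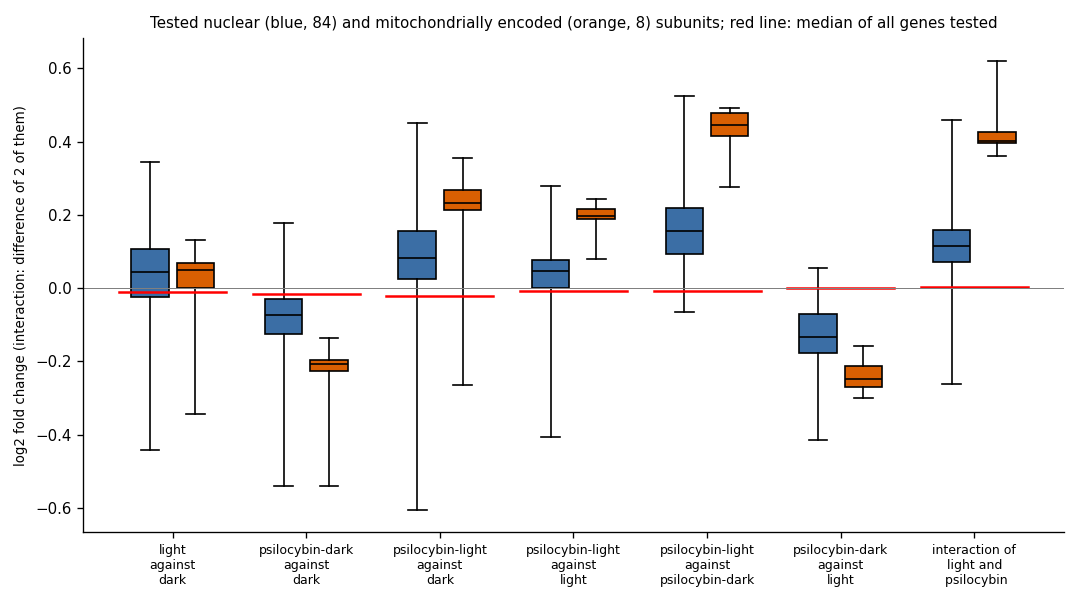
Log2 fold changes (vertical axis) of the 84 nuclear (blue) and 8 mitochondrially encoded (orange) members tested in each comparison (horizontal axis), with the interaction as a difference of 2 changes. Boxes show the quartiles and the median, whiskers the full range, and red lines the median of all genes tested. The orange median is 0.45 in psilocybin-light against psilocybin-dark mice and -0.21 in psilocybin-dark against dark mice, and most blue boxes lie nearer to 0 than the orange ones.

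The interaction compares the effect of the drug in light with its effect in the dark, as the log2 change of psilocybin-light over light less that of psilocybin-dark over dark. It was positive and called for 6 nuclear and 2 mitochondrially encoded members and negative for 0. Among all genes tested 3.89% were called positive and 4.86% negative. No member was negative by unadjusted p under 0.05, and DESeq2 called 11 nuclear and 4 mitochondrially encoded members, all positive. The edgeR shares are no background for these counts.

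Ndufa12 had the smallest p, with a difference of 0.35 (SE 0.07, adjusted p = 0.00554, edgeR). Sdhb followed at 0.18 (SE 0.04, adjusted p = 0.014) and Ndufa2 at 0.29 (SE 0.08, adjusted p = 0.0321). The other 5 were Ndufb6, Ndufs5 and Atp5f1c of the nucleus and mt-Nd1 and mt-Nd5 of the mitochondrion, with differences of 0.20 to 0.47. In Ndufa12 the psilocybin-dark mice were below every dark mouse, whereas psilocybin-light mice (932 to 994) lay at or above the upper part of the range of light mice (817 to 956).

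The interaction contains the comparison of psilocybin-dark with dark mice and so takes in the region markers of the dark group, of which 1 of 8 hippocampal and 3 of 6 hypothalamus and amygdala markers were called positive and 5 of 6 visual and upper-layer cortex markers negative. Of the cell type markers, 2 of 7 of astrocytes, 1 of 7 of GABAergic and 1 of 7 of glutamatergic neurons were negative. Their part in the interaction was not tested. With the hippocampal marker level as a covariate no member was called, and without a filter on low counts 1 was. The hippocampal level sets the dark mice apart, so calls lost with it cannot tell region from group. Leaving out 1 mouse gave 2 to 14 calls. The count was 2 without psilocybin-dark mouse 9, light mouse 13 or light mouse 16, 3 without dark mouse 4, psilocybin-dark mouse 10, light mouse 14 or psilocybin-light mice 19, 23 or 24, 4 without light mouse 17 or psilocybin-light mouse 21, and 5 without dark mice 1 or 3, psilocybin-dark mice 7, 8 or 11 or psilocybin-light mouse 20. It was 14 without light mouse 18.

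Across the 84 nuclear members tested, the mean was most often highest in psilocybin-light mice and lowest in psilocybin-dark mice. Psilocybin-light mice had the highest mean in 57 members, light mice in 16, dark mice in 11 and psilocybin-dark mice in 0. Psilocybin-dark mice had the lowest mean in 64, dark mice in 12, light mice in 7 and psilocybin-light mice in 1. The same was not counted over all genes tested, so these numbers stand without a background. In all, 45 nuclear members were called in at least 1 of the 7 comparisons, or 53.6% of those tested, beside 48.1% of all genes tested. Of the 8 mitochondrially encoded members 7 were. Uqcr10, Cox8a and Sdhb were each called in 4.

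Isoforms of restricted tissue distribution were at low levels or absent. Of 8 such members, Cox8c, the testis isoform of subunit VIII, was at 0 in all 24 mice, and Cox7b2, also of testis, and Cox8b, of heart and skeletal muscle, had at most 7 and 6 counts in a mouse. Cox7a1 of heart and skeletal muscle, Cox4i2, Cox6b2 of testis and Ndufa4l2, which hypoxia induces, had 25.4 to 44.1 normalized counts per kilobase. Cox6a2 of heart and skeletal muscle was the highest at 124. Their general partners were at 7613 (Cox6a1), 8430 (Cox4i1), 8512 (Cox8a), 5112 (Ndufa4), 1805 (Cox7a2), 1660 (Cox7b) and 3231 (Cox6b1) per kilobase. None of the 5 isoforms tested was called by edgeR in any comparison, and none had an unadjusted p under 0.05. The remaining untested nuclear members were Cox5b-ps, with at most 19 counts in a mouse, and Ndufb11b and a second gene named Atp5po, both at 0.

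Other genes of mitochondrial energy metabolism were counted from separate lists. In the comparison that follows, 2.60% of all genes tested were called higher and 3.78% lower. In psilocybin-light against psilocybin-dark mice, 4 of 59 assembly factors were higher, led by Ndufaf3 (0.26, adjusted p = 0.00264), a complex I assembly factor, Uqcc2 (0.27, adjusted p = 0.00648), of complex III, and Surf1 (0.19, adjusted p = 0.0102), of complex IV, all by edgeR. The lists of 21 electron carrier and exchange genes, 25 TCA cycle, 19 glycolysis and 26 mitochondrial DNA expression genes had no call by edgeR. By unadjusted p under 0.05, 7, 4, 3 and 2 of them were higher, and DESeq2 called 4, 1, 2 and 0. The edgeR shares are no background for these counts. These lists are broad. The TCA cycle list takes in Pdhb, Pdk2, Pdk3 and Pdp1, of pyruvate dehydrogenase and its regulation. The glycolysis list takes in the glucose transporter Slc2a1, and the carrier list Coq2, Coq3 and Coq8a of ubiquinone synthesis. Cyc1, a subunit of complex III whose symbol the choice of members does not cover, was counted among the carriers. Of 14 regulators of mitochondrial biogenesis 3 were lower and 0 higher, Ppargc1b, a transcriptional coactivator of respiratory genes, at -0.80 (adjusted p = 0.00336), Gabpa, the DNA-binding subunit of nuclear respiratory factor 2, at -0.25 (adjusted p = 0.00881), and Creb1, the cyclic AMP response element binding protein, at -0.38 (adjusted p = 0.0399). None of the 14 was higher by unadjusted p under 0.05 or by DESeq2. The size for Creb1 rested on psilocybin-dark mouse 10, the highest at 1883 with a group median of 1073, and was -0.21 (adjusted p = 0.0485) without it. The call of Creb1 was lost without any 1 of psilocybin-dark mouse 9, light mouse 15 and psilocybin-light mice 19, 20, 22, 23 and 24, where the estimate was -0.36 to -0.40. With length and GC trends removed, Ppargc1b was still called, and Ndufaf3, Uqcc2, Surf1, Gabpa and Creb1 were not. For these 3 regulators every psilocybin-light mouse was below every psilocybin-dark mouse.

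Lists of other short, widely expressed genes are given beside the members for that comparison. Of cytosolic ribosomal proteins 57 of 82 were higher (median 0.23), of mitochondrial ribosomal proteins 10 of 77 (median 0.11), and of proteasome subunits 7 of 38 with 1 lower (median 0.08). The nuclear members, with 36 of 84 higher and a median of 0.16, lay between the cytosolic ribosomal proteins and the other lists. No test of the difference between lists was made.

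In light against dark mice, 6 of 59 assembly factors were higher and 2 lower, and Lrpprc, which stabilizes mitochondrial mRNAs, was at -0.27 (adjusted p = 9.55e-05). Of the TCA cycle list 2 of 25 were higher and 7 lower, and Pdp1, the phosphatase that activates pyruvate dehydrogenase, was at 1.37 (adjusted p = 6.1e-06). Of the genes of mitochondrial DNA expression 2 of 26 were higher and 3 lower, among them Polg, the mitochondrial DNA polymerase, at 0.35 (adjusted p = 5.7e-05) and Top1mt, the mitochondrial topoisomerase I, at -0.52 (adjusted p = 0.000396). Among all genes tested 15.4% were called higher and 16.5% lower in light against dark mice. Of the counts of these 3 lists, only the 7 of 25 lower in the TCA cycle list exceeded that share. In psilocybin-dark against dark mice Pdp1 was at 1.45 and Top1mt at -0.57, and in psilocybin-light against dark mice at 1.35 and -0.57. These 3 comparisons share the dark mice, and all these p-values are from edgeR. With the hippocampal marker level as a covariate, neither Pdp1 nor Top1mt was called in any of the 3, nor Polg in light against dark mice. Since this level sets the dark mice apart, these lost calls cannot tell region from group.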

How the data were processed

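RNA from the visual cortex of 24 mice, 6 per group, was sequenced, and the values used are the raw counts per Ensembl gene that the authors deposited, before any normalization. The authors trimmed reads with cutadapt, discarded short ones, mapped the rest with STAR and counted them with htseq-count. The study's methods name GRCm39 and the submitters' processing notes name mm10. The annotation release, the strand setting and the read length are not given in the sources used here. Groups followed the headings of the supplementary count table, whose light exposure is the opposite of that in the sample labels. No per-sample column was left unused.

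Genes that reached 30 counts in at least 1 mouse were kept, libraries were scaled by TMM, and edgeR 4.0.16 in R 4.3.3 fitted 1 quasi-likelihood model to the 4 groups of mice. P-values were two-sided, adjusted over 14464 genes by the Benjamini-Hochberg procedure, with a threshold of 0.05. Shares of all genes called are by edgeR at this threshold, and none is given for counts by unadjusted p or DESeq2. Group differences of single genes were also compared by a two-sided exact permutation test over 924 splits of 12 mice. All p-values measure the spread between mice. The code was tested on simulated data with known changes. For well-counted genes these had less spread between mice than the common biological coefficient of variation here (0.182), and no length trend. They check the code and not how well changes of the sizes given here are recovered. Gene positions, lengths and repeated windows of 50 and 75 bases came from GRCm39 and GENCODE vM39, promoters from RefSeq (GRCm38.p6), and figures from matplotlib 3.10.9 in Python 3.11.15.

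The members and all lists were chosen with earlier results of these data known. Genes named with full values are the complex II subunits, up to 4 members per direction with the smallest p in each comparison (3 for the interaction), the mitochondrially encoded members, isoforms of restricted distribution with their general partners, the 3 highest and the 3 lowest per length, and up to 3 called genes with the smallest p in other pathway lists. Others were named after their values were seen.

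The alternatives were DESeq2 1.42.0, its size factors, TMM without mitochondrially encoded genes, removal of length and GC trends, filterByExpr, no filter, only the groups compared, 1 surrogate variable (sva 3.50.0), a hippocampal covariate, the labels' light exposure and fits without single mice or groups of mice.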

Additional observations from a re-analysis of the deposited data

Results flagged for a closer look

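Single mice were screened by the gap between the highest or lowest mouse of a group and its nearest neighbour, divided by the range of the group, against Dixon's 95% critical value for 6 values. Chance alone passes it in about 1 in 20 groups, and 4 of 96 sets of 6 values did so. Atp5me was far lower in psilocybin-dark mouse 10, at 679 normalized counts, than in the next mouse at 768. Cox6a1 was highest in light mouse 15 at 5022, with the next at 4694, and lowest in psilocybin-dark mouse 9 at 3767, with the next at 4052. Sdhc was highest in psilocybin-dark mouse 12 at 1367, with the next at 1166, and that mouse is 1 of the 4 high in cerebellar markers.

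The interaction term of the edgeR fit was called in 8 members, each with a positive difference. On the log2 scale the differences were 0.35 for Ndufa12, 0.18 for Sdhb, 0.29 for Ndufa2 and 0.24 for Ndufb6. They were 0.33 for Ndufs5, 0.20 for Atp5f1c, 0.47 for mt-Nd5 and 0.41 for mt-Nd1. The term contains the dark mice, which stood apart in region markers, and the part of these markers was not tested. No member was called with the hippocampal marker level as a covariate, and fewer were without a filter on low counts. Since the hippocampal level sets the dark mice apart, calls lost with it cannot tell region from group. Leaving out a mouse gave 2 to 14 calls. Under the light exposure of the labels each difference changes its sign.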

How the results depend on the processing

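Members called are given here for light against dark, psilocybin-dark against dark, psilocybin-light against dark, psilocybin-light against light, psilocybin-light against psilocybin-dark and psilocybin-dark against light mice in this order (comparisons 1 to 6), then for the interaction, where the count moved by over 1.5 times from 11, 11, 26, 1, 43, 3 and 8 or its main direction turned. The light exposure of the labels turned all of them, to 11, 1, 3, 11, 43, 26 and 8. Removing length and GC trends gave 13 in the first comparison, 9 of them lower, 0 in the fourth, 15 in the fifth and 0 in the sixth. Without a filter there were 7, 6, 17, 0, 26, 0 and 1. With only the groups compared in the fit there were 6, 6, 0 and 5 in comparisons 1, 2, 4 and 6. The hippocampal covariate gave 0, 0, 1 and 5 in comparisons 1, 2, 3 and 6 and 0 for the interaction. Since hippocampal markers set all dark mice apart, calls lost with it where dark mice take part cannot tell region from group. With 1 surrogate variable there were 17, 43 and 22 in comparisons 1, 3 and 6 and 17 for the interaction. DESeq2 gave 20 in the sixth and 15 for the interaction. Without dark mice 1 and 6 there were 21, 7 and 21 in comparisons 1, 2 and 6. A last pair of settings was chosen after seeing the data. Without dark mice 2 to 5, which have low cerebellar markers among the dark mice, there were 20 (13 lower), 44, 19 (10 lower) and 17 in comparisons 1, 2, 3 and 6 and 41 for the interaction, and without the 4 mice high in cerebellar markers 21, 46, 67 and 21 in comparisons 1, 3, 5 and 6 and 19 for the interaction. The cause of these shifts was not tested, apart from the fewer mice or added genes that some settings bring. The share of all genes called under each setting is not given here, so these counts stand without a background.

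Leaving out each mouse in turn gave 7 to 19, 7 to 17, 21 to 36, 0 to 1, 29 to 51, 0 to 15 and 2 to 14 calls in that order. The single member called against all 3 other groups was Sdhb. It was no longer so (0 members) with length and GC trends removed, without a filter or with only the groups compared. The same held with the hippocampal covariate and without dark mice 2 to 5. With single mice left out, 0 to 1 members were called against all 3. There were 0 without dark mouse 2 or any of the 8 mice named for its call against light mice. Under the light exposure of the labels, Sdhb was not raised in the mice labelled psilocybin-light, and its changes are given below.

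Under the labels' light exposure 26 values of named members changed sign. Against dark mice, light mice had -0.30 for Cox8a, -0.20 for Cox6a1, -0.19 for Cox6c, -0.18 for Ndufs6 and 0.13 for Sdha, psilocybin-dark mice 0.11 for Ndufa12, 0.034 for Atp5mf, 0.084 for Ndufa2 and 0.014 for Sdha, and psilocybin-light mice -0.24 for Cox8a, -0.19 for Cox6c, -0.25 for Uqcr10, -0.059 for Ndufs3 and 0.018 for Sdha. Psilocybin-light mice had -0.035 for Sdhb against light mice, and against psilocybin-dark mice -0.30 for Uqcr10, -0.31 for Ndufa2, -0.48 for mt-Nd1, -0.26 for Ndufa12 and -0.12 for Sdhb. Psilocybin-dark against light mice gave 0.23 for Uqcr10, 0.090 for Atp5me and 0.29 for Cox8a, and the interaction -0.35 for Ndufa12, -0.18 for Sdhb and -0.29 for Ndufa2. Of 374 values of named members under alternatives other than leaving out 1 mouse, 284 kept their direction and their side of the threshold and 64 kept only their direction. No paired analysis was possible because the groups share no replicate numbers.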
